A study of Mus musculus with 4 samples.

Results

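The 2 induced pluripotent stem (iPS) cell lines of the study, 492B4 and 178B5, were compared with each other by subtracting the value of 178B5 from that of 492B4 for each gene. Of 19938 genes measured, 122 were at least 1 log2 unit (a factor of 2) apart (0.612%), 58 of them higher in 492B4 (0.291%) and 64 lower (0.321%). With both lines scaled to the same spread of differences from ES, the split was 43 higher and 75 lower. Each line had 1 array, so no difference had a replicate check and no test was made. Mouse embryonic fibroblasts (MEF) and the line v6.5 of embryonic stem (ES) cells, also 1 array each, show which of the lines stands away from the others. MEF and both iPS lines share a mixed background of the strains C57BL/6, DBA/2 and 129S4, while v6.5 is an F1 hybrid of C57BL/6 and 129. The 3 pluripotent lines were grown in serum-containing medium on a feeder layer of mitomycin-C-treated SNL cells that carry puromycin resistance, and MEF in DMEM with serum. The labels name neither the factors used for reprogramming nor the passage of a line, and nothing describes repeat cultures. All values below are on the log2 scale, with base 2 assumed, relative to the gene's median over the 4 arrays. They are therefore differences between arrays and not levels, and cannot be ranked between genes.

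iPS cells are made by returning somatic cells to a state in which they can form all tissues of the embryo. That state rests on a small circuit of transcription factors, among them Pou5f1, Sox2 and Nanog. Lines that share this circuit can still differ in genes that it does not hold fixed, such as those of early lineages, of germ cells, of imprinted loci and of metabolism. Mouse pluripotent cells in serum are also known to contain minor populations with primitive endoderm or primed epiblast features.

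The lines lay closer to each other than either lay to ES. Their differences had a standard deviation of 0.275 over all genes, against 0.403 for 178B5 minus ES and 0.485 for 492B4 minus ES. Against ES, 2.53% of genes were at least 1 log2 higher and 2.2% lower in 492B4, 1.43% and 1.32% in 178B5, and 11.6% and 9.91% in MEF. These comparisons share arrays, and each is given only as a description. Of the pluripotency factors, Pou5f1, Sox2 and Nanog were near equal in the iPS lines. Pou5f1 differed by 0.17 (492B4 minus 178B5), Sox2 by 0.02 and Nanog by -0.01. On the MEF array the same genes were at -6.25, -6.16 and -5.96, and on the ES array at 0.15, -0.06 and 0.10. None of the 24 measured core pluripotency genes was 1 log2 apart, beside 0.612% of all genes. The differences ran from -0.75 for Zfp42 to 0.61 for Dppa4, with a median of 0.05, beside -0.02 over all genes. In the naive state list, 0 of 19 genes were 1 log2 apart. At the share of 0.612%, lists this short would seldom hold such a gene. The extremes were Gbx2 at -0.87 and Tet2, which oxidises methylcytosine, at 0.89. Over all genes the lowest and highest percentile of differences began at -0.74 and 0.75, so Zfp42, Gbx2 and Tet2 lay in these tails.

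Of the genes higher in 492B4, 7 act in meiotic prophase, and the promoters of 4 of them are printed here because they share a short run of letters. The lines below give the 250 bases before the RefSeq start site (GRCm38.p6), 5′ to 3′ on the gene's own strand, with the hexamer CACGTG in capitals. The windows are chr10:88459337-88459586 (plus strand), chr3:102936101-102936350 (minus), chr9:58741560-58741809 (minus) and chr11:101278953-101279202 (plus).
Sycp3: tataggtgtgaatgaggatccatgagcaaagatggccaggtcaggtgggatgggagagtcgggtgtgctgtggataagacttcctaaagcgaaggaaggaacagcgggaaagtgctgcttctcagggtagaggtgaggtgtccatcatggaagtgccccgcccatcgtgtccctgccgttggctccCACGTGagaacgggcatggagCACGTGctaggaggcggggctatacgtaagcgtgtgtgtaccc
Sycp1: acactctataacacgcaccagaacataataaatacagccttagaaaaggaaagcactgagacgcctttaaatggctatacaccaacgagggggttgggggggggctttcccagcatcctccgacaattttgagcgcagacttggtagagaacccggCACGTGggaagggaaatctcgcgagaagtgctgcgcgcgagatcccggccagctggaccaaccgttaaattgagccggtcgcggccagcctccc
Rec114: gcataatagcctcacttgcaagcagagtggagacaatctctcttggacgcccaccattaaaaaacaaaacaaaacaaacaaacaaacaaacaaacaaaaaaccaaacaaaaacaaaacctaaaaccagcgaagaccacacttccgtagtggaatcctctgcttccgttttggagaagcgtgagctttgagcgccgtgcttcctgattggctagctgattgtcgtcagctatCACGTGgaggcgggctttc
Cntd1: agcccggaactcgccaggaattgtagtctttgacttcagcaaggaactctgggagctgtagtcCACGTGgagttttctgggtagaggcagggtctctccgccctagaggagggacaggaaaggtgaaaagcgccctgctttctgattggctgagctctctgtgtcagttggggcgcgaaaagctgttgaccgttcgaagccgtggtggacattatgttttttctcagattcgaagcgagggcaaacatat
CACGTG reads the same on both strands, occurred 2 times before Sycp3 and 1 time before each of the others, and is known as a binding site of E-box factors. It was absent from the windows of Ccna1 and Dazl, and for Meiob no window was used here. Over the full 300-base windows (250 before to 50 after the start), 4 of 6 of these meiotic genes held the hexamer, beside 9.52% of the 15563 measured genes with a window. Among all genes higher in 492B4 it was 8 of 45 (17.8%), and among those lower 6 of 38 (15.8%). The hexamer was searched after the values had been seen, and a match is a description of letters. The median was 12 CpG per 300 bases for the genes higher in 492B4, 14.5 for those lower and 15 for all genes. TATAAA on either strand was found in 3 of 45, 5 of 38 and 13.6% of all.

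The list of meiotic prophase genes was written after the values were seen, so its counts restate those values and describe only which genes it holds. Of its 43 measured genes 34 were above 0 and 7 were at least 1 log2 higher (0.291% of all genes), with 2 at least 1 log2 lower (0.321%). The list's median was 0.24. After scaling the lines to one spread from ES, Sycp3, Sycp1 and Rec114 stayed at least 1 log2 higher, while Cntd1 (0.86), Dazl (0.96), Meiob (0.99) and Ccna1 (0.999) lay under it. Over all genes the median was -0.02 and 46.8% were above 0. In the list of germline genes, which shares members with it, 32 of 52 were above 0, 3 were 1 log2 higher and 1 lower, and the median was 0.12. Under that scaling the median of the germline genes was 0.03, with 27 of 52 above 0.

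Sycp3, which builds the lateral element of the synaptonemal complex, stood at 1.54 in 492B4, -0.19 in 178B5, 0.19 in ES and -1.52 in MEF. The line 492B4 was thus 1.73 log2 above 178B5, and 178B5 lay next to ES. Sycp1, the transverse filament of the same complex, was at 1.10 in 492B4, -0.17 in 178B5, 0.17 in ES and -0.75 in MEF. Rec114, needed to form the DNA breaks that start recombination, was at 1.51, 0.03, -0.03 and -1.49 in the same order. For all 3 genes 492B4 was the highest array and MEF the lowest.

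Meiob, a single-strand DNA-binding protein of meiotic recombination, was at 1.87 in 492B4, 0.56 in 178B5, -0.56 in ES and -0.67 in MEF, so that both iPS lines were above ES. Cntd1, a cyclin-like crossover factor, showed the same order at 1.84, 0.64, -0.64 and -1.99. Ccna1, the germ cell cyclin A, was 1.23 log2 higher in 492B4 (1.58 against 0.35, with ES at -0.35), and Dazl, an RNA-binding protein of germ cells, was 1.15 higher (1.41 against 0.26, with ES at -0.26). Stag3, Tex12, Spata22, Shoc1 and Hormad1, which act in the chromosome axis, the synaptonemal complex or recombination, lay 0.75 to 0.85 log2 higher, just under the threshold.

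Not every meiotic gene followed. Ccnb1ip1, which acts in crossover formation, differed by -1.27, at -0.63 in 492B4 against 0.63 in 178B5, 1.27 in ES and -2.40 in MEF. Tex15, a germ cell gene of recombination and transposon silencing, was at -0.24 in 492B4, 0.88 in 178B5, 0.24 in ES and -1.19 in MEF. The germ cell gene Mael was near equal, at 0.80 in 492B4 and 0.91 in 178B5.

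Genes of glycolysis and of the response to low oxygen were also higher in 492B4, mostly by small amounts. Of 36 measured genes in this list 34 were above 0, with a median of 0.23. In it 2 were at least 1 log2 higher (0.291% of all genes). Under the scaling to one spread from ES, 31 were above 0 with a median of 0.19 and 0 were 1 log2 apart (Aldoc 0.99, Ndrg1 0.95). As deposited, Aldoc, an aldolase isoform, was at 1.54 in 492B4, 0.33 in 178B5, -0.33 in ES and -3.91 in MEF. Ndrg1, known as a hypoxia-induced gene, was at 0.93 in 492B4, and the other 3 arrays lay between -0.12 and 0.11. Bnip3 and Adm were each 0.68 log2 higher, Pfkp 0.73 and Vegfa 0.52. Outside the list, Ndufa4l2, a known target of hypoxia-inducible factors, was at 1.64 in 492B4, 0.32 in 178B5, -0.32 in ES and -0.90 in MEF. Mgarp, a mitochondrial protein linked to hypoxia, was 1.04 higher, or 0.97 after scaling. Epas1, which encodes the hypoxia-inducible factor HIF-2 alpha, differed by -1.02, at 0.06 in 492B4 against 1.08 in 178B5, with ES at -0.06 and MEF at -1.95.

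The list of p53 targets and cell cycle inhibitors held no gene 1 log2 apart (0.612% of all genes). Of its 23 genes 21 were above 0, with a median of 0.23 (0.13 after scaling to one spread from ES). The most separated was Aen, a p53-induced nuclease, at 0.78. Integrated stress response targets had 21 of 27 above 0 and a median of 0.16. Cell cycle genes were split evenly, with 19 of 38 above 0 and a median of -0.01.

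**Figure D1:**
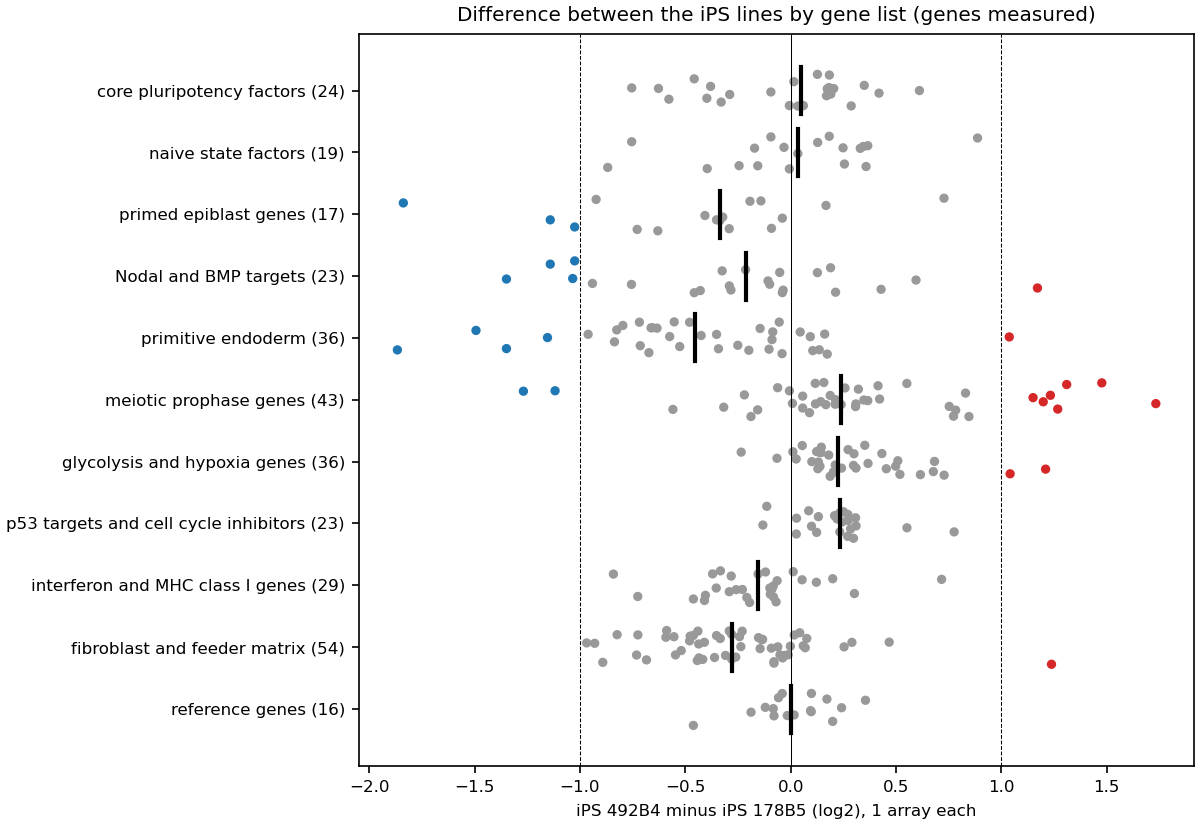
Difference between the iPS lines (492B4 minus 178B5, log2 units, 1 array each) for each gene of 11 lists, with the number of genes measured in brackets; points are spread vertically only for legibility, black bars are list medians, red and blue points are genes at least 1 log2 higher or lower in 492B4. The meiotic prophase, glycolysis and hypoxia, and p53 lists have medians of 0.24, 0.23 and 0.23, while primitive endoderm and primed epiblast lists have -0.45 and -0.34. The meiotic prophase list was written after the values were seen, so its median restates them. The germline list, which is not drawn, has a median of 0.12.

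Lists of early lineages leaned lower in 492B4, except that of trophoblast genes, which lay near the median of all genes (-0.02). Trophoblast genes had a median of 0.02, with 12 of 20 above 0 and none 1 log2 apart (0.612% of all genes). Mesoderm and primitive streak genes had -0.14, with 16 of 22 below 0, 1 higher and none lower by 1 log2. In the neural list 13 of 18 were below 0, with a median of -0.13, and 1 was at least 1 log2 lower. Primitive endoderm is the extraembryonic layer that gives rise to the yolk sac. In its list 29 of 36 genes were below 0 (53.1% of all genes), with a median of -0.45. In it 4 were at least 1 log2 lower and 1 higher (0.321% and 0.291% of all genes). The scaling to one spread from ES gave a median of -0.74, with 9 genes lower and 0 higher. Both iPS lines were above ES over the list, by a median of 1.22 in 178B5 and 0.93 in 492B4, so 492B4 lay between 178B5 and ES. As deposited, regulators differed by less than 1 log2, and their differences after scaling are not listed here. Sox17 differed by -0.96, at 0.41 in 492B4, 1.37 in 178B5, -0.94 in ES and -0.41 in MEF, and Gata4 by -0.84, at 1.09, 1.92, -1.09 and -1.62. The basement membrane gene Lama1 differed by -0.63. RNA came from whole cultures, in which fewer cells of a type and less RNA per cell cannot be told apart.

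Aqp8, a water channel, stood at 0.60 in 492B4, 2.09 in 178B5, -0.60 in ES and -0.71 in MEF. F3, the coagulation receptor called tissue factor, was at -0.58 in 492B4, 0.58 in 178B5, -1.67 in ES and 0.80 in MEF. For both genes the iPS lines were above ES and 178B5 was farther from it. Thbd, the anticoagulant receptor thrombomodulin, differed from this pattern, with 178B5 at 0.04 and ES at -0.04 near each other, 492B4 at -1.83 and MEF at 2.35. Cubn, an endocytic receptor of the yolk sac, ran the other way, at 2.08 in 492B4, 1.04 in 178B5, -1.56 in ES and -1.04 in MEF. With the lines scaled to one spread from ES, Cubn differed by 0.47. Its co-receptors Amn and Lrp2 were 0.17 and 0.16 higher in 492B4.

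Signalling by Nodal, a ligand of the TGF-beta family, is active in pluripotent cells and induces its own antagonists, Lefty1 and Lefty2. Lefty1 was at -0.32 in 492B4, 0.82 in 178B5, 0.32 in ES and -3.04 in MEF, and Lefty2 at -0.07, 0.95, 0.07 and -3.10. In both, ES lay between the iPS lines, closer to 492B4 for Lefty2. Nodal itself was at -0.02 in 492B4 and 0.02 in 178B5, and its co-receptor Tdgf1 at 0.10 and -0.03. Among the related ligands and inhibitors, Bmp4 was 1.17 higher in 492B4, with 178B5 the array that stood apart, at -1.55 against -0.38 in 492B4, 0.38 in ES and 0.52 in MEF. Fst, which binds activin, differed by -1.35, at -0.82 in 492B4 against 0.53 in 178B5, with ES at -0.53 and MEF at 2.83. The BMP antagonist Grem1 differed by -1.03. Over the 23 measured Nodal and BMP genes 17 were below 0, with a median of -0.21, which was -0.10 when the genes of chromosome 1, Lefty1 and Lefty2 among them, were left out, and -0.07 with the lines scaled to one spread from ES.

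Of 17 primed epiblast genes 15 were below 0, with a median of -0.34, and 3 were at least 1 log2 lower (0.321% of all genes). Besides both Lefty genes this was Zic2, a zinc finger factor of the early neural plate, at -0.70 in 492B4, 1.14 in 178B5, 0.70 in ES and -1.34 in MEF. Its relative Zic5 differed by -0.73 and Otx2 by -0.14. Fgf15 went the other way, 0.73 higher. Among 26 genes of FGF and MAPK signalling 19 were below 0, with a median of -0.17 (-0.10 after scaling to one spread from ES). The growth factor gene Fgf17 was at -0.50 in 492B4, 0.50 in 178B5, 0.92 in ES and -0.94 in MEF, a difference that scaling brought to -0.84.

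Myc, which drives growth and is one of the classical reprogramming factors, differed by -1.05. It stood at -1.31 in 492B4, -0.26 in 178B5, 0.40 in ES and 0.26 in MEF, so 492B4 was the lowest array. The same scaling brought the difference to -0.84, under the threshold. Mycn, its relative in pluripotent cells, differed by -0.71. Of the other factors used for reprogramming, Klf4 differed by -0.24 and Lin28a by -0.40.

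The lean of fibroblast genes depended on the scaling. Of 54 fibroblast matrix genes 45 were below 0 in 492B4 minus 178B5, with a median of -0.28. Only 1, the receptor gene Pdgfrb, was at least 1 log2 apart (0.612% of all genes), 1.24 higher. After scaling to one spread from ES 30 were below 0 and the median was -0.07. Against ES the list's median was -1.12 in 178B5, -1.47 in 492B4 and 2.24 in MEF. The matrix genes Dcn and Col1a1 differed by -0.97 and -0.68, and the surface marker Thy1 by -0.09. The part of feeder or differentiated cells in the differences was not tested. Among the genes lower in 492B4 that MEF holds high, Penk, the enkephalin precursor, was at -2.93 in 492B4, -1.82 in 178B5, 1.82 in ES and 3.60 in MEF. Ptgs2, the inducible cyclooxygenase, followed the same order at -1.99, -0.94, 0.94 and 3.25, as did Grem1, Tm4sf1 and the growth factor gene Pdgfc. With the lines scaled to one spread from ES, the differences were -0.34 for Penk, -0.61 for Ptgs2, -0.47 for Grem1, -0.81 for Tm4sf1 and -0.88 for Pdgfc. Sulf1, which removes sulfate from heparan chains, was different, since only 492B4 stood low, at -1.91 against -0.11 in 178B5 and 0.11 in ES. Macrophage and muscle markers had medians of -0.04 and 0.03, and 0.06 and -0.03 after scaling.

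Which line departs from ES was read with the same 1 log2 distance. Among the 122 genes 492B4 alone was at least 1 log2 from ES for 58, 178B5 alone for 20, both on the same side for 14 and neither for 30. No gene had the lines on opposite sides at that distance. With no minimum distance, 492B4 was the farther line for 85 genes and 178B5 for 37. Over all genes 492B4 also lay farther from ES. There 2.53% were at least 1 log2 higher and 2.2% lower, against 1.43% and 1.32% in 178B5. The classes were not recounted with the lines scaled to one spread from ES, so the part of this wider spread in the split was not tested. For genes higher in 492B4 the split by line was 33 for 492B4 alone and 6 for 178B5 alone, and for those lower it was 25 and 14. Of the 58 genes higher in 492B4, it was the highest of the 4 arrays in 49, and 178B5 the lowest in 12. Of the 64 lower genes, 492B4 was the lowest array in 37 and 178B5 the highest in 29. Over all genes 492B4 was the highest or lowest array in 54.1%, 178B5 in 27.6% and MEF in 77.9%. The 122 genes were picked for a wide gap between the lines, which itself moves a line toward an extreme. The shares over all genes are therefore not a like background for them.

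**Figure D2:**
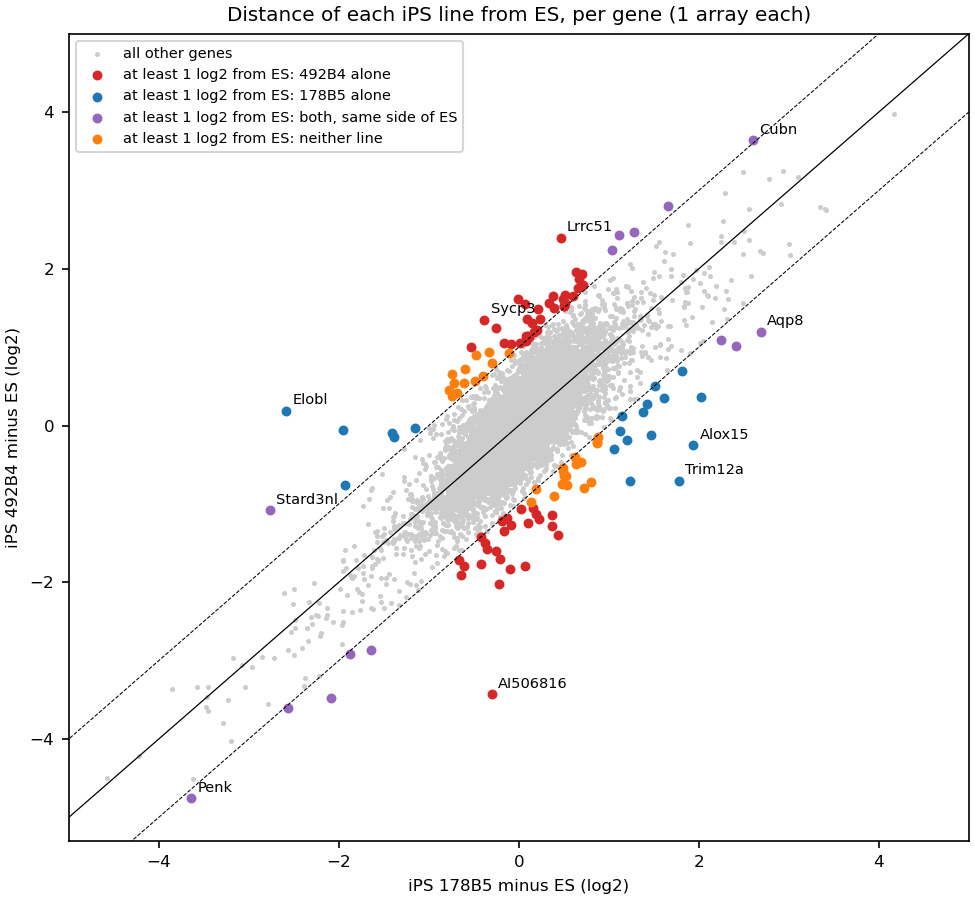
Each point is a gene, placed by its difference from ES in 178B5 (x axis) and in 492B4 (y axis), both in log2 units from 1 array each; the solid line marks equality of the lines and the dashed lines a difference of 1 log2. Coloured are the 122 genes outside the dashed lines, by which line is at least 1 log2 from ES: 58 for 492B4 alone, 20 for 178B5 alone, 14 for both and 30 for neither.

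Among the 33 genes for which 492B4 alone stood above ES, MEF was within 1 log2 of ES for 21, on the far side for 9 and on the side of 492B4 for 3. These 3 were Lrrc51, Slco3a1 and Taf9b. Lrrc51 was at 1.65 in 492B4, -0.29 in 178B5, -0.75 in ES and 0.29 in MEF. Taf9b, a subunit gene of transcription initiation complexes, was at 0.96 in 492B4 and 0.65 in MEF, with 178B5 at -0.67 and ES at -0.65. Slco3a1, an organic anion transporter, was at 0.63 in 492B4, -0.88 in 178B5, -0.63 in ES and 2.10 in MEF. The peptide transporter gene Slc15a1 (1.14 against -0.08) and the ectoenzyme gene Bst1 (1.30 against 0.02) were high in 492B4 alone. So was Bhlha15, a factor of secretory cells (1.24 against 0.08).

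Among the 25 genes for which 492B4 alone stood below ES, it lay on the MEF side for 11, away from MEF for 6, and MEF was near ES for 8. The greatest separation of all was AI506816, at -3.27 in 492B4, -0.15 in 178B5, 0.15 in ES and 0.97 in MEF, so that 492B4 was 3.13 log2 under 178B5 (11.5% of it). Car2, a carbonic anhydrase, was at -0.87 in 492B4, 0.87 in 178B5, 0.97 in ES and -3.08 in MEF. Trh, the precursor of thyrotropin-releasing hormone, was at -0.57, 0.94, 0.57 and -4.31 in the same order. In both, 492B4 lay between the other pluripotent lines and MEF, nearer to the lines. Igf2bp3, an RNA-binding protein of embryonic tissue, was at -1.09 in 492B4 while the other 3 arrays ran from -0.03 to 0.10. After scaling to one spread from ES its difference was -0.94. Sox4, a factor of progenitor cells, was at -1.23 in 492B4, -0.04 in 178B5, 0.04 in ES and 1.54 in MEF. Gap43, a protein of growing axons, was at -1.32, -0.13, 0.47 and 0.13, and its difference of -1.19 was -0.97 after scaling.

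The 14 genes for which 178B5 alone stood above ES included several that were near equal on the other 3 arrays. Alox15, a lipoxygenase, was at 1.90 in 178B5, -0.29 in 492B4, -0.04 in ES and 0.04 in MEF. Ptger3, a prostaglandin E receptor, was at 1.47 in 178B5 and between -0.12 and 0.00 elsewhere. Cdh5, the vascular cadherin, was at 1.44 in 178B5, 0.17 in 492B4, -0.17 in ES and -0.40 in MEF. Of 15 endothelial markers 11 were below 0 and only Cdh5 was at least 1 log2 apart (0.612% of all genes). Tek, an endothelial receptor, lay just outside the threshold at -0.98. Adamts9, a matrix protease, was at 1.47 in 178B5 and 0.35 in 492B4. All 6 of its probe sets were lower in 492B4, with differences of -1.60 to -0.65. The other genes apart with several probe sets, Gstm3, Ina, Zc3h6 and Zfand1, had 2 each, both in the same direction.

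Trim12a, a relative of the antiviral gene Trim5, was at 1.56 in 178B5, -0.93 in 492B4, -0.22 in ES and 0.22 in MEF, and Irgm1, an immunity GTPase, at 0.62, -1.32, -0.62 and 1.78. For both genes ES lay between the iPS lines. Rtp4, which interferon induces, differed by -1.17. Of 29 interferon and MHC class I genes 23 were below 0 with a median of -0.15, and 0 were 1 log2 apart (0.612% of all genes).

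For 30 genes neither line was 1 log2 from ES, so that ES lay between lines that stood on either side of it. Besides Sycp1, both Lefty genes, Tex15, Rtp4, Mgarp and Pdgfrb, these held Hpn, a membrane protease, at 1.14 in 492B4, -0.24 in 178B5, 0.24 in ES and -0.71 in MEF. The long noncoding RNA Lncenc1, which is known from naive ES cells, was at 0.76 in 492B4, -0.34 in 178B5, 0.34 in ES and -4.90 in MEF. Edn1, which encodes the vessel-constricting peptide endothelin, was at -1.16 in 492B4, 0.36 in 178B5, -0.36 in ES and 0.72 in MEF. Glcci1, a glucocorticoid-induced gene, lay similarly at -1.12, 0.40, -0.40 and 1.93. The guidance genes Sema6a, Sema6d and Epha4 differed by -1.09, -1.17 and -1.04.

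For 6 genes 178B5 alone stood below ES. Elobl, named for its likeness to elongin B, was at -2.34 in 178B5 against 0.43 in 492B4, 0.24 in ES and -0.24 in MEF, the greatest separation on this side at 2.77 log2. Next to it on chromosome 11, with 0 measured genes between, 2210409E12Rik was at -0.95 in 178B5 and 0.95 in 492B4, with ES at 1.01 and MEF at -1.21. Rab25, a trafficking gene of epithelia, was at -0.62 in 178B5, 0.62 in 492B4, 0.77 in ES and -2.42 in MEF. Stard3nl, a lipid-binding membrane protein, was low in both lines, at -2.22 in 178B5 and -0.54 in 492B4 with ES at 0.54 and MEF at 0.99. Several genes that stood far apart, among them Elobl, Trim12a, Tcp11x2, Zfp975, Fthl17f, Thoc2l and Rpl12, belong to families of near-identical copies or have such pseudogenes, and the probes may not tell the copies apart. Whether strain alleles under the probes differ between the iPS lines, which share a mixed background, was not tested.

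**Figure D3:**
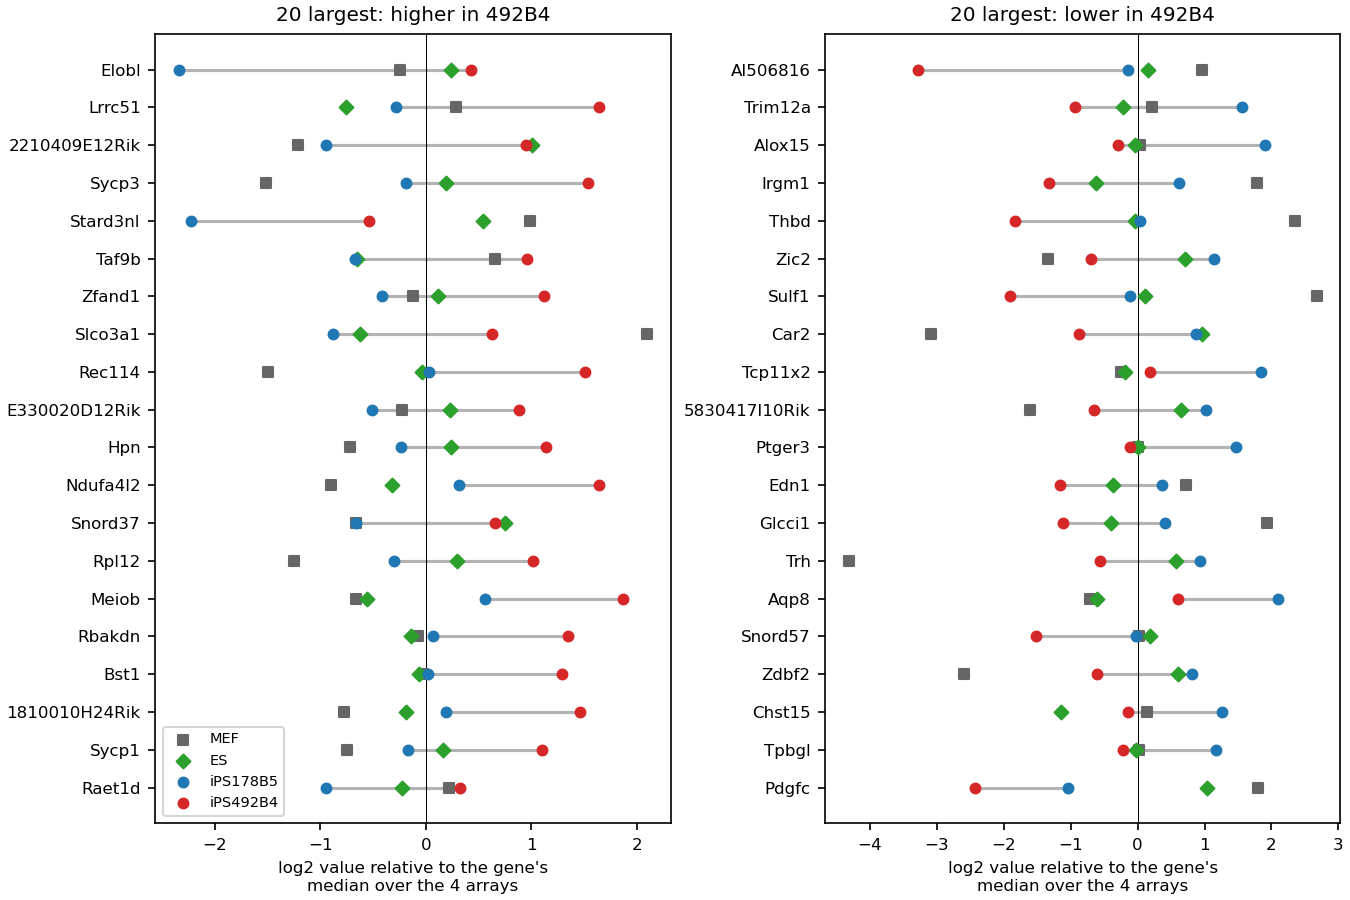
The 20 genes highest (left) and the 20 lowest (right) in 492B4 minus 178B5, with the value of each of the 4 arrays (MEF grey squares, ES green diamonds, 178B5 blue circles, 492B4 red circles) in log2 units relative to the gene's median over the arrays; the grey bar joins the iPS lines. AI506816 is low in 492B4 only, at -3.27, whereas Elobl is low in 178B5 only, at -2.34, and Alox15 is high in 178B5 only, at 1.90.

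Among imprinted genes, 1 of 50 was 1 log2 apart (0.612% of all genes). Zdbf2, which is expressed from the paternal copy, was at -0.60 in 492B4, 0.82 in 178B5, 0.60 in ES and -2.60 in MEF. The Dlk1-Dio3 domain carries maternally expressed noncoding RNAs and a large microRNA cluster. There Meg3 differed by -0.40, Rian by -0.06, Dlk1 by -0.65, Rtl1 by -0.39 and Dio3 by 0.05. Of 300 microRNA genes on the array 1, Mir377 of this domain, was at least 1 log2 apart, a smaller share than the 0.612% of all genes. It stood at -0.63 in 492B4, 0.56 in 178B5, -0.56 in ES and 1.01 in MEF. Of the 40 measured microRNA genes from Meg3 to Dio3, 33 were below 0, with a median of -0.15. Of the 300 microRNA genes 175 were below 0, with a median of -0.04, and of all genes 53.1% were below 0. After Mir377 the lowest of the 40 were Mir382 at -0.93 and Mir134 at -0.65. The RefSeq mature sequences of Mir377 (GRCm38.p6, chr12:109740515-109740536 and chr12:109740553-109740574, plus strand) are printed to identify this gene's products, with the seed, bases 2 to 8, in capitals.
mmu-miR-377-5p: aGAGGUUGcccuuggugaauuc
mmu-miR-377-3p: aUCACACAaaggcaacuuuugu
The probe sets were read from labelled total RNA, which holds precursor and host transcripts, so the values do not tell mature from precursor. Of 55 small nucleolar RNA genes, Snord37 (1.32) and Scarna8 (1.15) were higher and Snord57 (-1.49) lower in 492B4, and 41 were above 0, with a median of 0.16. The shares over all genes were 0.291% higher, 0.321% lower and 46.8% above 0.

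Genes of chromosome 1 were lower in 492B4 as a whole. Over its 1122 measured genes the median difference was -0.14 and 76.2% were below 0, beside -0.01 and 51.7% over the genes of all other chromosomes. No other autosome had a median beyond -0.04 or 0.01, and the X chromosome had -0.05. In runs of 100 neighbouring genes, all 11 full runs of chromosome 1 had medians from -0.20 to -0.06, while the 177 full runs elsewhere lay between -0.08 and 0.09. The chromosome 1 median was also -0.14 with the lines scaled to one spread from ES. Against ES, the chromosome 1 median was 0.04 in 178B5 and -0.10 in 492B4, and over the other chromosomes it was -0.05 and -0.06. The distance from the other chromosomes was thus wider in 178B5. Medians farther from 0 against ES were found on chromosome 11, at 0.13 in 178B5 and 0.12 in 492B4, and on chromosome 8, at -0.13 in both, but there the iPS lines lay together. Over genes at least 2 log2 higher in ES than in MEF, a choice made after seeing the data, 21 of 30 on chromosome 1 were below 0 with a median of -0.16. On the X chromosome 21 of 31 such genes were below 0 with a median of -0.11, and on chromosome 18 it was 7 of 8 with -0.11, so the lean of these genes was not seen on chromosome 1 alone. Over all other chromosomes together 189 of 481 were below 0, with a median of 0.09. DNA copy number was not measured in these data.

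**Figure D4:**
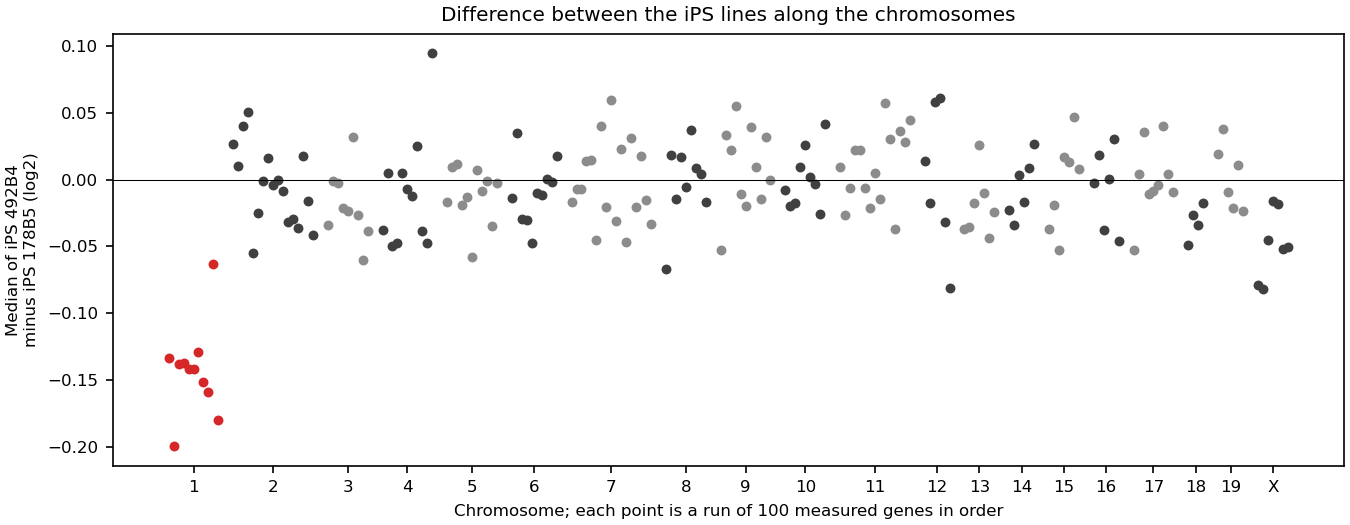
Median difference between the iPS lines (492B4 minus 178B5, log2 units) in runs of 100 neighbouring measured genes, in order along chromosomes 1 to 19 and X; only full runs are drawn, and chromosome 1 is red. All 11 runs of chromosome 1 lie between -0.20 and -0.06, and the 177 runs elsewhere between -0.08 and 0.09, so that the run of chromosome 1 nearest 0 falls inside their range.

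Of the 9 genes of chromosome 1 at least 1 log2 apart, 8 were lower in 492B4 and 1, E330020D12Rik, higher (1.39). They were among 1122 measured genes, and over all genes 0.321% were lower and 0.291% higher. The 8 were Sulf1, Zdbf2, Ly96, Lefty1, Ptgs2, Epha4, Vash2 and Lefty2, with differences of -1.80 to -1.02, far wider than the median of the chromosome. Lefty1 and Lefty2 lie next to each other there. Chromosome 3 held 17 genes apart, 9 higher and 8 lower, with a median over its 943 genes of -0.03. Over all genes 0.612% were apart.

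The threshold of 1 log2 falls in a continuous range. Just inside it on the higher side were Atp12a (1.02), Stoml1 (1.01) and Ero1b (1.00), and just outside Extl1 (0.99), Spata5l1 (0.98) and A2m (0.98). On the lower side Gkn2 (-1.01), Fgf17 (-1.001) and Zfp618 (-1.001) lay inside, and Bend3 (-0.99), Tek (-0.98) and Flrt2 (-0.98) outside. Of the 122 genes, 29 belong to a gene list, 5 of them only to the meiotic prophase list, and 93 to none. Of 7064 probe sets with several gene symbols or none, 62 (0.878%) were also at least 1 log2 apart and are left unnamed.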

How the data were processed

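Each of 4 total RNA samples was hybridised to a single Affymetrix array in 1 colour, per the labels. The authors deposited 1 table of log2 values (base taken as 2) for 28853 probe sets, made with GCRMA per the submitters' processing notes. GCRMA corrects background, normalizes between arrays and summarises probes; no version was given in the sources used here. Each probe set was centred on its median over the 4 arrays (0 within 1e-06), which leaves differences between arrays untouched but removes levels, so no probe set could be filtered for dimness. Depth on an array is not countable, and the number of arrays limits the precision.

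Gene symbols came from the platform annotation: 21789 probe sets had 1 gene symbol and were used, 1621 had several and 5443 none. Probe sets of a gene were averaged, which gave 19938 genes, 18939 with 1 probe set. Chromosome and gene order for 19856 genes, promoter and microRNA sequences came from RefSeq (GRCm38.p6). Differences were computed in Python 3.11.15 with pandas 2.3.3, and the sorting of genes by departing line was tested on simulated data.

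The 122 genes, the 40 gene lists (1082 entries, 946 measured) and 26 name families were chosen with earlier results of these data known; the meiotic prophase list (47 entries, 43 measured) was added after values were seen. Named in the text are genes from the 20 highest and 20 lowest differences, up to 8 per departure class and direction, list and family members at least 1 log2 apart, 3 genes either side of the threshold, and neighbours. Other genes named fall outside this rule and were chosen after their values were seen. Alternatives were other thresholds, array centrings, probe set rules and scalings.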

Additional observations from a re-analysis of the deposited data

How the results depend on the processing

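No paired analysis was possible because each sample had 1 array and the labels give no replicate numbers. No alternative turned the sign of any of the 122 differences. At 1.5 log2 the counts were 8 higher and 14 lower in 492B4, at 0.6 log2 437 and 410, and with probe sets as units, named or not, 99 and 100. Under the other alternatives both counts stayed within 1.5 times. With the lines scaled to one spread from ES, 37 of the 122 differences were under 1 log2; with reference gene centring it was 7, and with equal array medians 3. With 0.6 log2 as the distance from ES, both lines departed on the same side for 25 genes and neither for 3. With no distance minimum 178B5 was the farther line for 37 genes. List medians were recomputed under both centrings, with genes of 1 probe set, without chromosome 1 genes and, the last 2 chosen after seeing the data, with the lines scaled to one spread from ES. In all, 199 stayed within 0.1 log2 and 6 did not. The Nodal and BMP median was -0.10 without chromosome 1 genes and -0.0689 with the scaling. Under the scaling the primitive endoderm median was -0.74, the fibroblast median -0.0750, the p53 median 0.13 and the macrophage median 0.0638. The values rest on 1 array per line, and a difference specific to a line cannot be told apart from one specific to an RNA preparation or array.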
